A study of Mus musculus with 12 samples.

Results

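Genes that drive or mark the cell cycle were followed in the adult mouse pineal gland. The 36 genes were set by name, and each was read from the brightest probe set that the annotation table gives to that symbol alone. A probe set of their own was found for 35 genes, and Ccnb1 had none. Of these 35, 30 passed the filter on dim signals and were tested, among 12379 genes tested in all. The study profiled pineal glands of Crx-/- mice, in which the photoreceptor and pineal transcription factor Crx is disrupted, and of control mice at Zeitgeber time 6 (ZT6, day) and ZT20 (night) on 12 Affymetrix mouse 430_2 arrays. The groups were Crx-/- at ZT6, control at ZT6, Crx-/- at ZT20 and control at ZT20, with 3 biological replicates in each. Both genotypes are labelled as strain 129sv, held males and females older than 2 months, and were housed in a light cycle of 12 h light and 12 h dark. The gland donors at ZT20 were killed under dim red light. How many glands made up a sample, and the sex of each, are not given in the sources used here.

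In a dividing cell, D-type cyclins with Cdk4 and Cdk6, and then E-type cyclins with Cdk2, phosphorylate the retinoblastoma protein and free the E2F factors. E2F factors switch on genes for DNA replication, and cyclin A, cyclin B, Cdk1 and the Aurora and Polo kinases then carry the cell through mitosis. The adult pineal gland is made up mostly of pinealocytes, which no longer divide, together with glia, vascular and connective tissue cells and macrophages. Several of these genes, D-type cyclins and Cdk inhibitors among them, are also expressed in cells that have left the cycle.

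Signals are the authors' linear probe set intensities after quantile normalization between arrays, and changes are differences of log2(signal + 3.4), Crx-/- minus control or ZT20 minus ZT6. The trimmed mean of the deposited signals ranged from 381.8 to 698.3 over the arrays before normalization, and the number of replicates limits the precision. Crx was present on all 12 arrays, at 6025 to 9894, but whether its probe set lies inside the disrupted stretch is not given in the sources used here, so this level checks no label. All 10 pinealocyte markers examined, among them Tph1, Aanat and Otx2, were above background on all 12 arrays. The array labelled control ZT20 replicate 3 correlated across genes at 0.914 to 0.924 with the other arrays of its group and at 0.970 to 0.989 with the Crx-/- ZT20 arrays, against 0.979 to 0.992 for the other pairs within a group. It was kept under its label. Whether that label is right was not tested, and every control ZT20 value and every fit of all 12 arrays depends on it. For that reason counts are given with and without it in every comparison, as are some of the single genes where it moved the value or the call. The ratio of 5' to 3' signal, a measure of RNA integrity, ran from 0.169 to 0.219 for actin in Crx-/- ZT6 and from 0.248 to 0.283 in control ZT6, without overlap. At ZT20 it ran from 0.197 to 0.282 in Crx-/- and from 0.197 to 0.337 in control. Its part in the genotype differences below was not tested.

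Markers of other cell types also moved with genotype. Over both times 25.3% of all genes tested rose and 18.1% fell. The 4 oligodendrocyte markers that passed the filter on dim signals rose, and 5 others did not pass the filter (9 of 10 listed markers had a probe set). Among brain and habenular neuron markers 4 of 7 tested rose and 1 fell, with a median change of 1.43 on the log2 scale over both times and 2.39 at ZT6. In the other lists 8 of 10 meningeal, fibroblast and mural markers rose, 7 of 9 astrocyte markers rose and 1 fell, 5 of 10 microglial and macrophage markers rose and 1 fell, 4 of 9 endothelial markers rose, 3 of 5 choroid plexus and ependymal markers rose, 1 of 3 erythrocyte markers fell, and the 1 skeletal muscle marker tested rose. Of the 10 pinealocyte markers, 1 rose and 4 fell. Without control ZT20 replicate 3, 31.2% of all genes rose and 24.7% fell. In that fit 10 of 10 meningeal, fibroblast and mural markers rose, and 4 of 5 choroid plexus and ependymal markers rose. Of 9 astrocyte markers 7 rose and 2 fell, of 10 microglial and macrophage markers 6 and 1, of 9 endothelial markers 6 and 1, and of 10 pinealocyte markers 2 and 4. The counts of the other lists stayed the same. The summed pinealocyte signal was 51665 to 57571 in Crx-/- ZT6 and 61612 to 62266 in control ZT6, and 49399 to 52105 in Crx-/- ZT20 and 52479 to 56966 in control ZT20, without overlap at either time. The summed oligodendrocyte signal was 10404 to 12485 in Crx-/- ZT6 and 5555 to 6305 in control ZT6. At ZT20 it was 11456 to 12367 in Crx-/- and 6259 to 10423 in control, with the array labelled control ZT20 replicate 3 highest among the controls. On all 3 arrays of a group, Mag was at background in Crx-/- ZT6, Mog, Olig1 and Olig2 in control ZT6, Mog and Mag in Crx-/- ZT20, and Olig1 and Olig2 in control ZT20. The neuron markers Nefl and Calb2 were at background in control ZT6 and in no other group. The summed neuron signal overlapped between the genotypes at both times. It was 20131 to 24072 in Crx-/- ZT6 and 22398 to 23156 in control ZT6. At ZT20 it was 21885 to 22904 in Crx-/- and 21615 to 23549 in control. The meningeal sum was 40950 to 43540 in Crx-/- ZT6 and 22922 to 24617 in control ZT6, and at ZT20 it was 37378 to 41639 in Crx-/- and 29745 to 41251 in control. The microglial sum was 15975 to 17831 in Crx-/- ZT6 and 9788 to 16749 in control ZT6, and 16461 to 18496 in Crx-/- ZT20 and 12748 to 13353 in control ZT20. None of the listed microglial or meningeal markers was at background in a whole group. The part of these cell types in the cell cycle gene changes was not tested. In bulk tissue, fewer cells of a type and less RNA per cell cannot be told apart.

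Most of the cell cycle genes were measurable in the gland. Background was taken on each array as the highest signal of 27 probe sets for Bacillus transcripts, which ran from 9.14 to 18.2. Of the 35 genes, 33 were above it on all 12 arrays; Aurkb and Bub1 fell below it on control ZT20 replicate 1. A stricter level is the median of all probe sets, about 101 on each array: 22 genes were at or above it on all 12 arrays, and Ccnb2, Aurkb and Bub1 were below it on all 12.

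**Figure D1:**
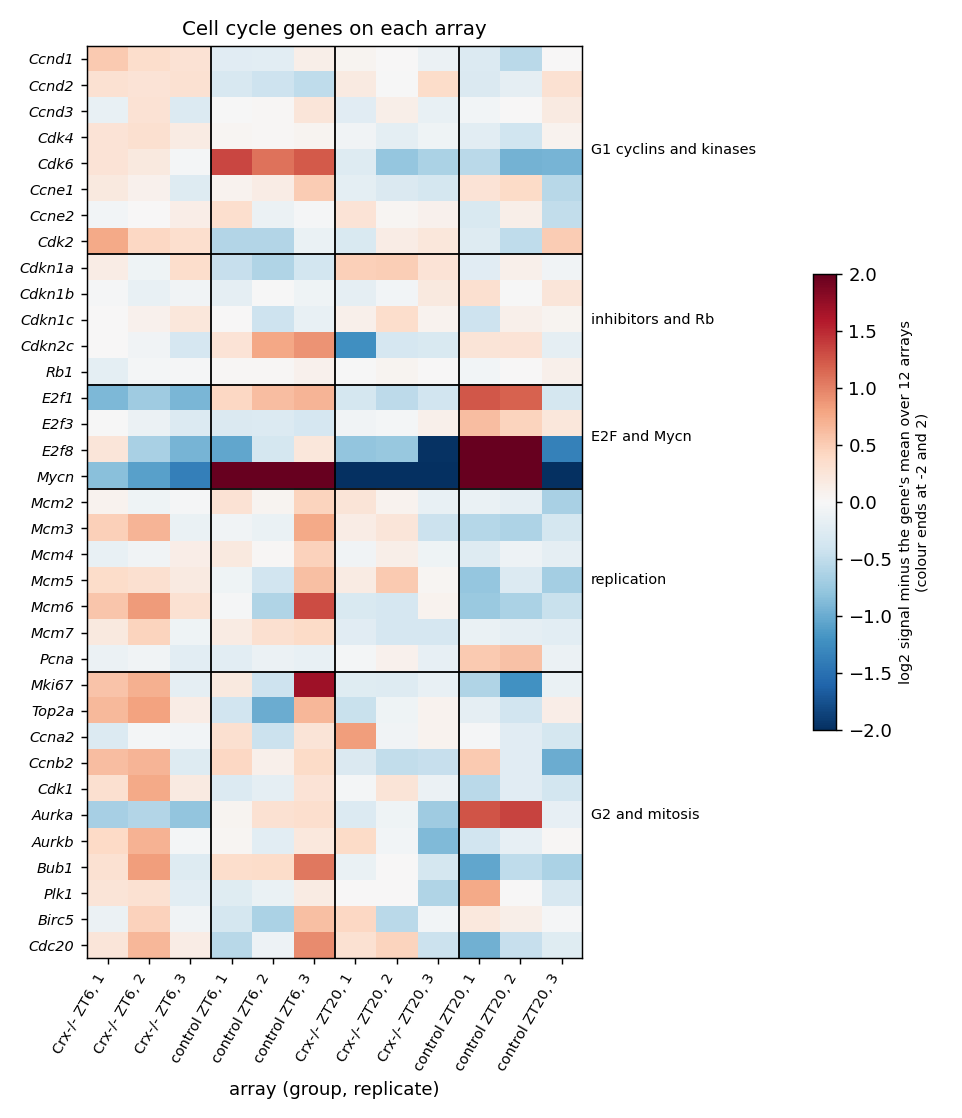
Log2 signal of each of the 35 cell cycle genes on each of the 12 arrays, minus that gene's mean over all arrays, with genes in rows by role and arrays in columns by group (Crx-/- ZT6, control ZT6, Crx-/- ZT20, control ZT20; replicates 1 to 3). Red is above and blue below the gene's mean, and the colour ends at -2 and 2. Mycn and E2f1 are red on the control arrays apart from control ZT20 replicate 3, E2f8 is dark red on control ZT20 replicates 1 and 2, and Mki67 and Mcm6 are reddest on control ZT6 replicate 3.

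These genes differed between the genotypes in both directions. Averaged over both times, Crx-/- glands had less Mycn, E2f1, Aurka, Cdkn2c and Cdk6, and more Cdkn1a, Mcm5, Cdk2, Ccnd2, Cdk1 and Ccnd1. In all, 11 of the 30 tested genes passed limma's test at an adjusted p under 0.05, 6 higher and 5 lower in Crx-/-, where 43.4% of all 12379 genes passed, 25.3% higher and 18.1% lower, so the share among the cell cycle genes was no higher than that among all genes. With control ZT20 replicate 3 left out 17 passed, 8 higher and 9 lower, where 55.9% of all genes did (31.2% higher, 24.7% lower). With all 12 arrays the median change of the 30 tested genes was 0.04 on the log2 scale, as was that of all genes. In that fit the median size of change regardless of sign was 0.31 among the cell cycle genes and 0.24 among all genes. Leaving out each array in turn gave 7 to 17 genes. The lowest count came without control ZT6 replicate 1, without Crx-/- ZT20 replicate 2 or without control ZT20 replicate 1. The calls of Mycn, E2f1, Aurka, Cdkn2c, Cdkn1a, Ccnd2 and Ccnd1 held in all 12 of these fits. With the signals as deposited those of Cdkn2c and Ccnd1 were lost (limma, adjusted p = 0.116 and 0.0885).

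**Figure D2:**
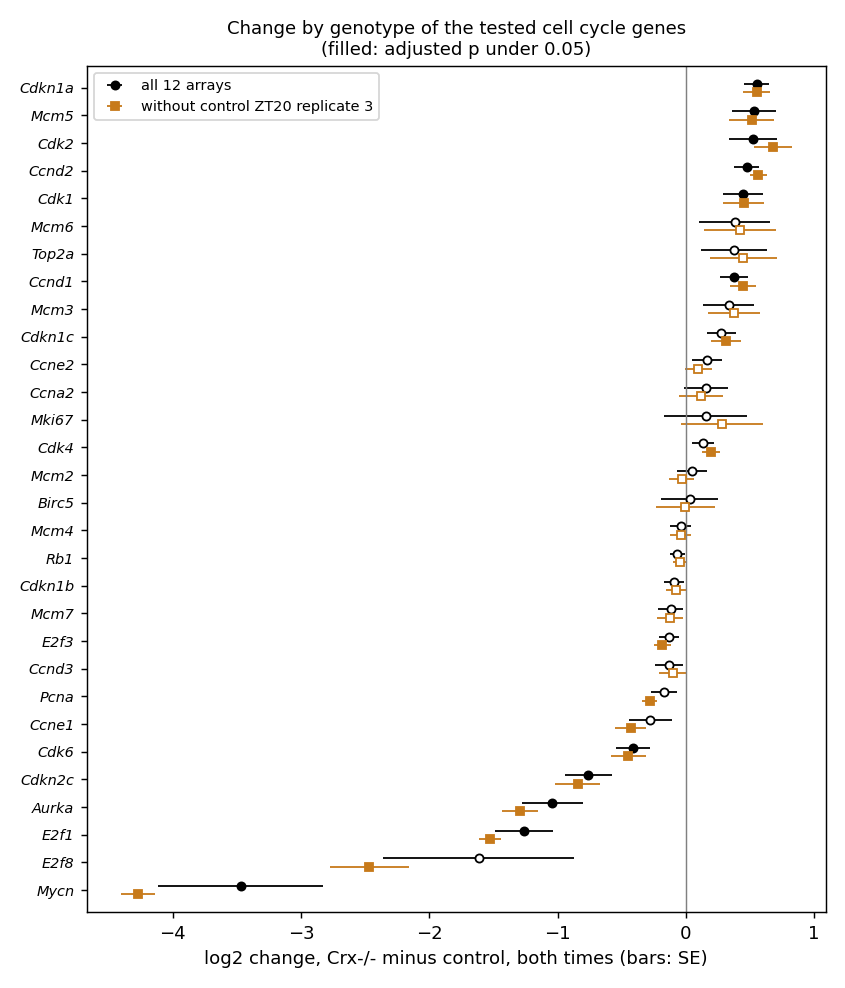
Change by genotype averaged over both times for the 30 tested cell cycle genes, as log2 of Crx-/- minus control with its standard error. Black circles are the fit of all 12 arrays and orange squares the fit without control ZT20 replicate 3, filled where limma's adjusted p was under 0.05. Mycn lies lowest in both fits, E2f8 is filled only in the second, and the rises are all smaller than 1 on the log2 scale.

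By time of day, the genotypes differed in 8 genes at ZT6, 4 higher and 4 lower in Crx-/-, where 32.0% of all genes passed (18.9% higher, 13.1% lower). At ZT20 they differed in 6, with 2 higher and 4 lower, where 11.6% of all genes passed (6.83% higher, 4.81% lower). When control ZT20 replicate 3 was left out the count at ZT6 became 9, 4 higher and 5 lower, where 43.5% of all genes passed (24.8% higher, 18.7% lower). At ZT20 it became 12, 4 higher and 8 lower, where 43.8% of all genes passed (24.1% higher, 19.6% lower). At ZT20 the count of 6 was not stable: leaving out that array raised it to 12, while each of the other 11 omissions left 0 to 2 calls. The 3 arrays of each genotype did not overlap at ZT6 for 12 of 30 genes, 6 higher and 6 lower, where 55.1% of all genes did not overlap (30.6% higher, 24.5% lower). At ZT20 9 did not overlap, 5 higher and 4 lower, where 27.2% of all genes did not (16.2% higher, 10.9% lower). Dropping control ZT20 replicate 3 gave 19, 10 higher and 9 lower, where 62.9% of all genes did not overlap (34.3% higher, 28.6% lower).

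Among the G1 cyclins and kinases, the D-type cyclins Ccnd1 and Ccnd2 and the kinase Cdk2 were higher in Crx-/- glands, while Cdk6 was lower at ZT6. Ccnd2 is one of the D-type cyclins that activate Cdk4 and Cdk6. Its signals were 5495, 5358 and 5499 in Crx-/- ZT6 and 3551, 3341 and 3132 in control ZT6. They were 5033, 4425 and 5772 in Crx-/- ZT20 and 3639, 3928 and 5486 in control ZT20. The ZT6 groups did not overlap, and at ZT20 control replicate 3 lay among the Crx-/- arrays. Over both times Ccnd2 rose by 0.47 ± 0.10 (SE; limma, adjusted p = 0.00248; n = 6 arrays against 6). Of its 6 other kept probe sets, 3 passed (0.31 to 0.47) and 3 did not (0.05, 0.30 and 0.31; limma, adjusted p = 0.829, 0.160 and 0.0639). The sister gene Ccnd1 had signals of 780, 690 and 663 in Crx-/- ZT6 and 460, 463 and 585 in control ZT6, again without overlap, and rose by 0.37 ± 0.11 over both times (limma, adjusted p = 0.0164), with 0.44 for its other kept probe set. At ZT6 alone it rose by 0.50, and that call was lost on removal of Crx-/- ZT6 replicate 1 or 2 or control ZT6 replicate 1 or 2 (limma, adjusted p up to 0.101). The third D-type cyclin, Ccnd3, ranged from 996 to 1472 over all arrays and its change of -0.13 ± 0.11 did not pass.

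Cdk2, the partner of cyclins E and A, had signals of 341, 268 and 255 in Crx-/- ZT6 and 133, 134 and 183 in control ZT6. At ZT20 it had 163, 224 and 238 in Crx-/- and 167, 140 and 287 in control. The genotypes were apart at ZT6 and overlapped at ZT20, where control replicate 3 was the highest array. Over both times Cdk2 rose by 0.53 ± 0.19 (limma, adjusted p = 0.0375), and at ZT6 by 0.93 ± 0.26 (adjusted p = 0.0183). The call over both times was lost in 8 of the 12 fits with 1 array left out, those without Crx-/- ZT6 replicates 1 or 2, control ZT6 replicates 1 or 2, Crx-/- ZT20 replicates 2 or 3, or control ZT20 replicates 1 or 2 (limma, adjusted p up to 0.0925). Without control ZT20 replicate 3 it was 0.68 ± 0.15 (adjusted p = 0.00155).

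Cdk6, the second D-cyclin kinase, showed the widest day to night difference in control glands among genes of this group. Its signals were 229, 217 and 184 in Crx-/- ZT6 and 484, 405 and 448 in control ZT6, and 158, 109 and 121 in Crx-/- ZT20 and 129, 97.0 and 97.3 in control ZT20. The day arrays of control glands stood above all others, the day arrays of Crx-/- glands came next, and the night arrays of both genotypes overlapped. The change by genotype was -1.08 ± 0.19 at ZT6 (limma, adjusted p = 0.00186) and 0.25 ± 0.19 at ZT20 (adjusted p = 0.359). From day to night Cdk6 fell by 2.03 on the log2 scale in control glands (SE 0.19; limma, adjusted p = 0.000126), whereas the change in Crx-/- glands was -0.70 ± 0.19 (adjusted p = 0.108). The interaction, the difference between these night changes, was 1.33 ± 0.27 and missed the threshold with all 12 arrays (adjusted p = 0.0601). Without control ZT20 replicate 3 it was 1.27 ± 0.27 and passed (adjusted p = 0.0163), and both night changes passed (limma, adjusted p = 0.0364 in Crx-/- and 2.22e-05 in control). A second kept probe set of Cdk6 fell with genotype by 0.62 over both times, against 0.41 for the one used, whose call over both times was lost without Crx-/- ZT6 replicate 3, control ZT6 replicates 1 or 3, Crx-/- ZT20 replicates 2 or 3, or control ZT20 replicate 1 (adjusted p up to 0.0679).

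The remaining G1 genes differed less. Cdk4, with signals from 1164 to 1919, changed by 0.13 ± 0.08 with genotype (limma, adjusted p = 0.212), and by 0.20 ± 0.07 without control ZT20 replicate 3 (adjusted p = 0.0241). Cyclin E1 (Ccne1), which activates Cdk2 at the start of replication, had 205, 192 and 184 in Crx-/- ZT20 and 287, 308 and 158 in control ZT20. Control replicate 3 was thus the lowest of the 6 night arrays and the other control arrays the highest. Its change over both times was -0.28 ± 0.17 with all arrays (adjusted p = 0.199) and -0.43 ± 0.12 without that array (adjusted p = 0.00875). Cyclin E2 (Ccne2), from 667 to 1189, changed by 0.16 ± 0.12 and did not pass in either fit.

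Of the inhibitors, Cdkn1a was higher and Cdkn2c lower in Crx-/- glands. Cdkn1a encodes p21, a target of p53 that binds cyclin and Cdk pairs. Its signals were 693, 588 and 805 in Crx-/- ZT6 and 453, 411 and 484 in control ZT6, and 871, 888 and 761 in Crx-/- ZT20 and 537, 671 and 597 in control ZT20. The genotypes did not overlap at either time, and control ZT20 replicate 3 lay between the other controls of its group. Cdkn1a rose by 0.55 ± 0.10 over both times (limma, adjusted p = 0.00146), by 0.62 ± 0.14 at ZT6 (adjusted p = 0.00708) and by 0.48 ± 0.14 at ZT20 (adjusted p = 0.0483). The ZT20 call was lost in 9 of 12 fits with 1 array left out and held without Crx-/- ZT6 replicate 2 or 3 or control ZT20 replicate 3 (limma, adjusted p = 0.0225 to 0.178 over the 12 fits).

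Cdkn2c encodes p18, which binds Cdk4 and Cdk6. It had 276, 262 and 216 in Crx-/- ZT6 and 332, 472 and 517 in control ZT6, and 115, 216 and 222 in Crx-/- ZT20 and 329, 335 and 241 in control ZT20. Again the genotypes did not overlap at either time. It fell by 0.76 on the log2 scale over both times (SE 0.18; limma, adjusted p = 0.00590). Cdkn1b, which encodes p27, and Cdkn1c, which encodes p57, changed by -0.09 ± 0.08 and 0.28 ± 0.11 and did not pass (limma, adjusted p = 0.351 and 0.0680), while Cdkn1c did without control ZT20 replicate 3 (0.31 ± 0.11, adjusted p = 0.0323). The probe sets of Cdkn1b disagreed: the dimmer one changed by -0.61 and passed (adjusted p = 0.00231). Rb1, the retinoblastoma protein, stayed between 2421 and 2987 on all arrays, and its change was -0.07 ± 0.06 (adjusted p = 0.348).

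Of the listed genes that passed over both times with all 12 arrays, the proto-oncogene Mycn and the factor E2f1 had the largest falls with genotype. The change of E2f8 was larger than that of E2f1 and did not pass with all 12 arrays, but did without control ZT20 replicate 3. Mycn encodes the transcription factor N-Myc, which drives the growth of neural progenitors. Its signals were 233, 196 and 161 in Crx-/- ZT6 and 2522, 2630 and 2400 in control ZT6, and 58.1, 81.9 and 97.7 in Crx-/- ZT20 and 2414, 2181 and 86.8 in control ZT20. The ZT6 genotypes were far apart, with a control mean 12.8 times that of Crx-/-, and at ZT20 control replicate 3 lay inside the Crx-/- range while the other controls averaged 29.0 times the Crx-/- mean. Mycn fell by 3.47 on the log2 scale over both times (SE 0.64; limma, adjusted p = 0.00155). At ZT6 the change was -3.67 ± 0.91 (adjusted p = 0.00989), and at ZT20 -3.27 ± 0.91 (adjusted p = 0.0425). Without control ZT20 replicate 3 the changes at ZT6 and ZT20 were -3.69 ± 0.18 and -4.86 ± 0.20 (limma, adjusted p = 5.62e-09 and 2.37e-09). In the fits that left out 1 of the other 11 arrays, the ZT20 change ran from -3.45 to -2.45 and missed the threshold. The second kept probe set of Mycn changed by -1.16 (adjusted p = 0.00893).

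**Figure D3:**
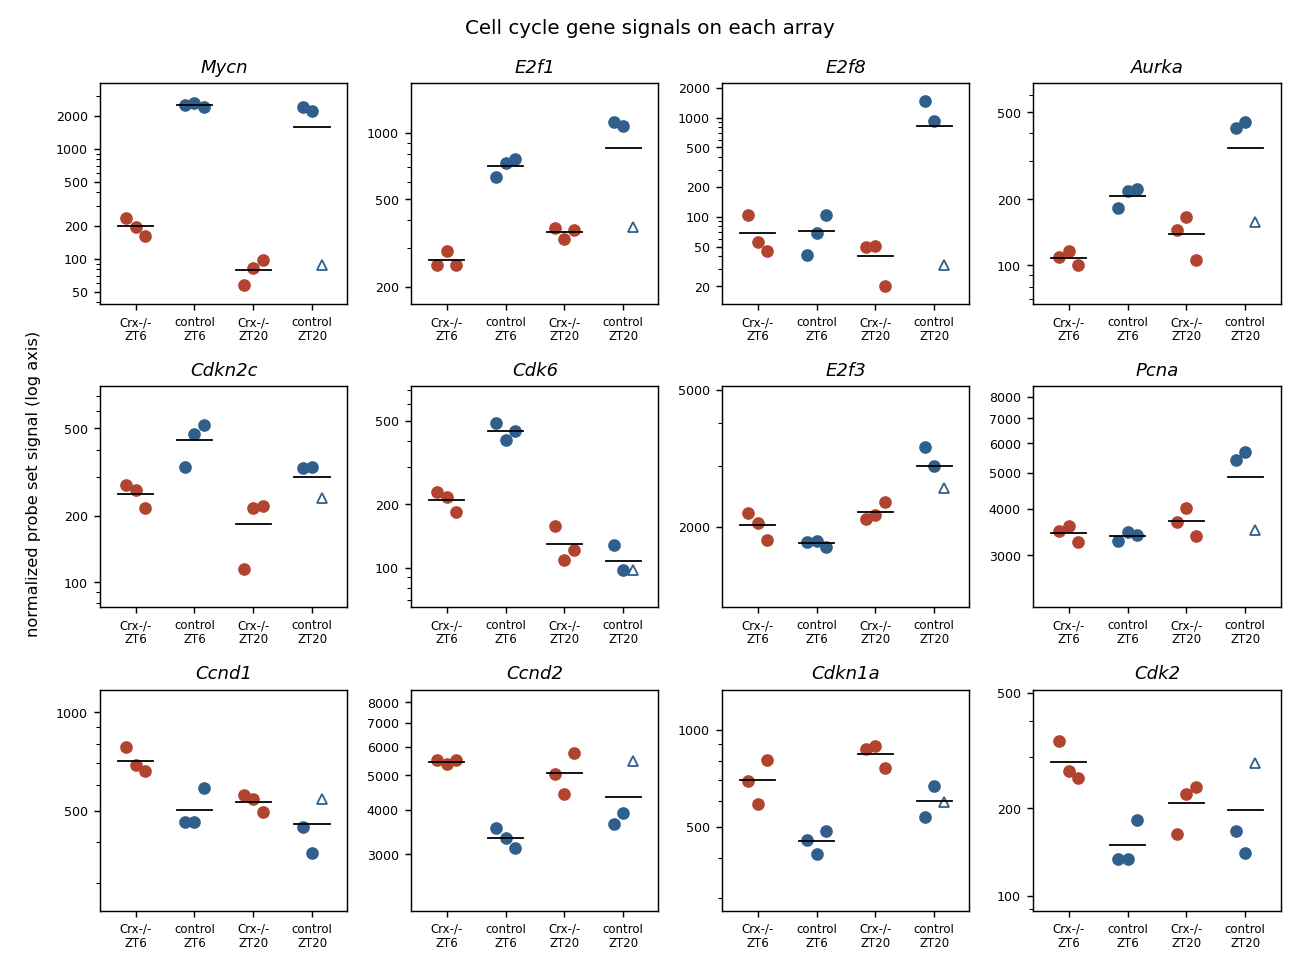
Normalized probe set signal (log axis) of 12 cell cycle genes on each array, in the order Crx-/- ZT6, control ZT6, Crx-/- ZT20 and control ZT20, with a line at each group's mean of 3 arrays. Red points are Crx-/- arrays, blue points control arrays and the open triangle the array labelled control ZT20 replicate 3. The triangle lies with the Crx-/- ZT20 points for Mycn, E2f1, E2f8, Aurka and Pcna, and within its own group for Cdkn1a.

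E2f1, an activating E2F factor, had 252, 289 and 250 in Crx-/- ZT6 and 631, 730 and 763 in control ZT6. At ZT20 it had 370, 330 and 363 in Crx-/- and 1123, 1075 and 373 in control. The genotypes did not overlap at either time, but control ZT20 replicate 3 lay just above the highest Crx-/- array. It fell by 1.26 on the log2 scale over both times (SE 0.23; limma, adjusted p = 0.00131), and by 1.53 without that array (SE 0.09; adjusted p = 1.4e-08). At ZT20 the change was -1.11 ± 0.32 (adjusted p = 0.0458), a call that held among the 12 fits with 1 array left out only without control ZT20 replicate 3 (-1.63 ± 0.13, adjusted p = 8.45e-07). Its second kept probe set changed by -0.97 (adjusted p = 0.00425).

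E2f8 is a repressive E2F factor that is itself switched on by E2F during replication, and it was high on 2 control night arrays. It had 105, 55.4 and 45.1 in Crx-/- ZT6 and 41.5, 68.8 and 104 in control ZT6, and 50.1, 51.1 and 19.9 in Crx-/- ZT20 and 1483, 934 and 32.5 in control ZT20. Control ZT20 replicates 1 and 2 stood above every other array, the remaining 10 arrays overlapped, and replicate 3 lay inside the Crx-/- ZT20 range. All 12 arrays were above background. With all 12 arrays the change was -1.62 ± 0.74 over both times and -3.18 ± 1.05 at ZT20, and neither passed (limma, adjusted p = 0.0962 and 0.0632). Without control ZT20 replicate 3 the ZT20 change was -4.88 ± 0.46 (adjusted p = 3.48e-06), the ZT6 change -0.06 ± 0.41 (adjusted p = 0.921), and the interaction -4.82 ± 0.62 (adjusted p = 0.000939), with the other control night arrays averaging 29.9 times the Crx-/- ZT20 mean. That contrast rests on 2 control arrays, without which E2f8 would not have passed the filter on dim signals. It was at or above the array median on 4 arrays in all, these 2 among them. Its adjusted p-values therefore do not stand apart from the filter.

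E2f3, another activating E2F factor, had 2194, 2045 and 1835 in Crx-/- ZT6 and 1811, 1825 and 1752 in control ZT6, and 2104, 2159 and 2364 in Crx-/- ZT20 and 3403, 3010 and 2583 in control ZT20. The night control arrays lay above all others, replicate 3 included. At ZT20 E2f3 fell by 0.43 on the log2 scale in Crx-/- glands (SE 0.11; limma, adjusted p = 0.0357), a call lost without any 1 of the 3 control ZT6 arrays, Crx-/- ZT20 replicates 1 or 2 or control ZT20 replicates 1 or 2 (adjusted p up to 0.148). From day to night it rose by 0.73 ± 0.11 in control glands (adjusted p = 0.00135), while the change in Crx-/- glands was 0.13 ± 0.11 (adjusted p = 0.686). The interaction was -0.60 ± 0.16 (adjusted p = 0.126), and -0.71 ± 0.14 without control ZT20 replicate 3 (adjusted p = 0.00961).

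Mycn, E2f1, E2f8 and Aurka were each low on the Crx-/- ZT20 arrays and on control ZT20 replicate 3, beside the other control ZT20 arrays. So were Pcna and Ccne1, whose stretches are not printed. The 250 bases before the starts of Mycn, E2f1, E2f8 and Aurka were read (RefSeq, build GRCm38.p6, 5′ to 3′ on the gene's strand). Aurka is described further on. The stretch before the start that RefSeq lists for E2f1 held no match to the sites below and is not printed. It was not checked to lie before the main start, may lie inside the gene, and is among the 33 starts below. The lack of a match there says nothing about the E2f1 promoter. Promoters of 28 of the cell cycle genes matched the RefSeq table, with 33 starts as RefSeq lists them, which need not be a gene's main start. Both strands were searched. An E2F site core was taken as TTTCGCG, or with other middle letters as TTTGGCG, or else as TTTCCCG. The core of the cell cycle homology region was taken as TTTGAA or, in its other form, as TTCGAA. The box bound by NF-Y was CCAAT, and a core of Crx sites was TAATCC. Capitals mark matches, on either strand.
Mycn, chr12:12941837-12942086, minus strand: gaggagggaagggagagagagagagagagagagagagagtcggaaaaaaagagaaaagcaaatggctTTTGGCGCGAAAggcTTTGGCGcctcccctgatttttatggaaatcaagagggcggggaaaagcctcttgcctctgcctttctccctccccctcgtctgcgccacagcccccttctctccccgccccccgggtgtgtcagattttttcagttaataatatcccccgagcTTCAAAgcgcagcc
E2f8, chr7:48881597-48881846, minus strand: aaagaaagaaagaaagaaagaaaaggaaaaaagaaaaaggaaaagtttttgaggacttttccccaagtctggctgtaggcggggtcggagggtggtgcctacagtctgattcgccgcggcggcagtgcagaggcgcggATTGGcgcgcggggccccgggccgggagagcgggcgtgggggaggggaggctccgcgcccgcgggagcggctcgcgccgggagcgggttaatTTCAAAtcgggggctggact
Aurka, chr2:172370571-172370820, minus strand: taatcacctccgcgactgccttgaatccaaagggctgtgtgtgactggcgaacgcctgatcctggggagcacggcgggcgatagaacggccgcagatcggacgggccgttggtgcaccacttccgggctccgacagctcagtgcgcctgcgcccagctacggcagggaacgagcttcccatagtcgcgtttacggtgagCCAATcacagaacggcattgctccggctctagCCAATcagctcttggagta
The Mycn promoter held TTTGGCG at 183 and 168 bases before the start and CGCGAAA, the other strand of TTTCGCG, at 178 bases before it, overlapping the first match. It also held TTCAAA, the other strand of TTTGAA, at 14 bases before the start. The E2f8 promoter held ATTGG, the other strand of CCAAT, and TTCAAA, and the Aurka promoter held CCAAT at 51 and 19 bases before the start. One of the E2F cores stood in 27.3% of the 33 promoters, against 4.57% of 32851 promoters in the table, CCAAT in 63.6% against 33.8%, and either form of the homology region core in 30.3% against 17.1%. TAATCC stood in 0 of 33, against 6.25% of all. These are matches of letters in one window, with no binding measured.

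Of the 7 replication genes, Mcm5 alone passed by genotype over both times with all arrays, and Pcna passed as lower without control ZT20 replicate 3 (-0.28 ± 0.06; limma, adjusted p = 0.000758). Pcna, the sliding clamp of the replication fork, had 3494, 3585 and 3258 in Crx-/- ZT6 and 3278, 3473 and 3398 in control ZT6, and 3694, 4029 and 3373 in Crx-/- ZT20 and 5422, 5685 and 3504 in control ZT20. The day arrays overlapped, and control ZT20 replicates 1 and 2 stood above all others. Its change at ZT20 was -0.37 ± 0.15 with all arrays (limma, adjusted p = 0.103) and -0.59 ± 0.08 without control ZT20 replicate 3 (adjusted p = 0.000104). In control glands it rose at night by 0.49 ± 0.15 (adjusted p = 0.0408), a call lost in 10 of the 12 fits with 1 array left out and held without Crx-/- ZT20 replicate 3 or control ZT20 replicate 3 (0.72 ± 0.08 in the last). Without that array the interaction was -0.62 ± 0.11 (adjusted p = 0.00721).

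The Mcm proteins form the ring helicase that opens DNA for replication. Mcm5 is the one of the 6 measured that passed by genotype. Its signals were 299, 291 and 261 in Crx-/- ZT6 and 217, 176 and 352 in control ZT6, and 258, 334 and 238 in Crx-/- ZT20 and 134, 190 and 143 in control ZT20. The night genotypes did not overlap, and by day control replicate 3 was the highest of the 6. Mcm5 rose by 0.53 ± 0.17 (limma, adjusted p = 0.0245), a call lost without Crx-/- ZT6 replicate 1, control ZT6 replicates 1 or 2, Crx-/- ZT20 replicate 2 or control ZT20 replicate 1 (adjusted p up to 0.0639). The others changed by -0.12 (Mcm7) to 0.38 (Mcm6) on the log2 scale and did not pass, although a dimmer probe set of Mcm3 did (0.81, adjusted p = 0.0162, against 0.33 for the one used).

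In control glands Mcm2, Mcm4 and Mcm7 were lower at night than by day, with changes of -0.58 ± 0.16, -0.41 ± 0.12 and -0.46 ± 0.14 (limma, adjusted p = 0.0330, 0.0324 and 0.0397). For each of these genes the 3 night arrays lay below the 3 day arrays. Their calls were lost without control ZT6 replicate 1 or 3 (adjusted p up to 0.139), that of Mcm2 also without control ZT20 replicate 3 (-0.42, adjusted p = 0.0526), that of Mcm4 without control ZT20 replicate 1, and that of Mcm7 in 8 fits in all. In Crx-/- glands the night changes of Mcm2, Mcm4 and Mcm7 were 0.08, 0.02 and -0.49, and none passed with all 12 arrays. Without control ZT20 replicate 3 that of Mcm7 passed as lower (limma, adjusted p = 0.0431).

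The genes of G2 and mitosis split. Aurka, the kinase that matures the spindle poles, was lower in Crx-/- glands, and Cdk1, the kinase that starts mitosis, was higher. Aurka had 110, 116 and 100 in Crx-/- ZT6 and 182, 219 and 222 in control ZT6, and 145, 166 and 106 in Crx-/- ZT20 and 424, 452 and 157 in control ZT20. By day the genotypes did not overlap, and by night only control replicate 3 fell inside the Crx-/- range. Aurka fell by 1.04 on the log2 scale over both times (SE 0.24; limma, adjusted p = 0.00437), with -0.91 ± 0.33 at ZT6 (adjusted p = 0.0537) and -1.17 ± 0.33 at ZT20 (adjusted p = 0.0452). The ZT20 call held among the fits with 1 array left out only without control ZT20 replicate 3, where it was -1.67 ± 0.20 and the night rise in control glands was 1.08 ± 0.20 (adjusted p = 0.00190).

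Cdk1 had 181, 247 and 164 in Crx-/- ZT6 and 119, 127 and 176 in control ZT6, and 141, 174 and 134 in Crx-/- ZT20 and 98.3, 123 and 111 in control ZT20. The night genotypes did not overlap and the day ones did, through control replicate 3. Cdk1 rose by 0.45 ± 0.16 over both times (limma, adjusted p = 0.0354). The call was lost in 7 fits, those without Crx-/- ZT6 replicates 1 or 2, control ZT6 replicates 1 or 2, Crx-/- ZT20 replicates 1 or 2 or control ZT20 replicate 1 (adjusted p up to 0.0877).

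The proliferation markers Mki67, which encodes the Ki-67 antigen of cycling cells, and Top2a, the topoisomerase of replicating and mitotic chromosomes, did not pass by genotype. Mki67 had 177, 197 and 105 in Crx-/- ZT6 and 136, 88.4 and 393 in control ZT6, and 99.7, 99.0 and 107 in Crx-/- ZT20 and 77.1, 49.4 and 108 in control ZT20. The array control ZT6 replicate 3 was the highest of all 12 and its own replicates were within or below the range of the Crx-/- ZT6 arrays. The change of Mki67 was 0.15 ± 0.33 and that of Top2a 0.38 ± 0.26 (limma, adjusted p = 0.723 and 0.253). Across all 35 genes, control ZT6 replicate 3 lay above both other arrays of its group for 25, or 71.4%, against 39.8% of all genes tested. On that array the summed microglial and macrophage signal was 16749, against 11071 and 9788 on replicates 1 and 2, and its part in these values was not tested. Without control ZT6 replicate 3, Top2a (0.60, adjusted p = 0.0378) and Mcm6 (0.65, adjusted p = 0.0207) passed as higher in Crx-/-. With control ZT20 replicate 3 left out as well, a setting chosen after the data were seen, Mki67 did too (0.58, adjusted p = 0.0379).

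Ccna2, the cyclin of replication and G2, ranged from 311 to 752 and changed by 0.15 ± 0.17, and Birc5, the survivin subunit of the chromosomal passenger complex, ranged from 147 to 350 and changed by 0.03 ± 0.22 (limma, adjusted p = 0.486 and 0.926). The 5 genes that did not pass the filter on dim signals all belong to mitosis. Ccnb2 ranged from 22.1 to 77.8, the checkpoint kinase Bub1 from 15.4 to 76.3, the passenger kinase Aurkb from 10.4 to 37.8, the Polo kinase Plk1 from 40.5 to 110, and Cdc20, which activates the anaphase-promoting complex, from 30.2 to 123. For all 5 the Crx-/- and control arrays overlapped at ZT6. At ZT20 the signals of Bub1 were 31.6, 35.1 and 26.6 in Crx-/- and 15.4, 23.5 and 21.4 in control, without overlap and with no test.

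From day to night, 6 of the 30 genes changed in control glands, E2f3 and Pcna higher and Cdk6, Mcm2, Mcm4 and Mcm7 lower, where 16.1% of all genes passed (7.09% higher, 9.04% lower). In Crx-/- glands limma called 0 of 30, with 4 at an unadjusted p under 0.05, where 1.58% of all genes passed (0.695% higher, 0.881% lower). For the interaction it called 0 of 30, with 6 at an unadjusted p under 0.05, where 0.234% of all genes passed (0.113% higher, 0.121% lower). Without control ZT20 replicate 3, 10 genes changed with time in control glands, 5 higher and 5 lower (25.2% of all genes, 12.0% higher and 13.2% lower). In that fit 5 changed in Crx-/- glands, 1 higher and 4 lower (6.14% of all genes, 2.59% higher and 3.56% lower), and 5 passed for the interaction, 1 higher and 4 lower (6.14% of all genes, 2.27% higher and 3.87% lower). The arrays of ZT20 and ZT6 did not overlap for 10 genes in Crx-/- glands, 2 higher and 8 lower at night, where 22.0% of all genes did not (8.01% higher, the rest lower). In control glands this held for 9 genes, 4 higher and 5 lower, where 36.7% of all genes did not overlap (15.6% higher, 21.1% lower). With control ZT20 replicate 3 dropped it held for 17, 7 higher and 10 lower, where 58.2% of all genes did not overlap (27.2% higher, 31.0% lower).

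In the fit without control ZT20 replicate 3, Mycn was lower at night than by day in Crx-/- glands, with a change of -1.30 ± 0.18 (limma, adjusted p = 0.000553) and changed by -0.13 ± 0.20 in control glands (adjusted p = 0.660). E2f1 rose at night in both, by 0.43 ± 0.12 in Crx-/- and 0.64 ± 0.13 in control (adjusted p = 0.0498 and 0.00337), and Cdk4 fell in both, with changes of -0.37 ± 0.09 in Crx-/- and -0.35 ± 0.10 in control (adjusted p = 0.0248 and 0.0225). Each genotype was sampled at 2 times of day, which gives a difference and no rhythm.

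**Figure D4:**
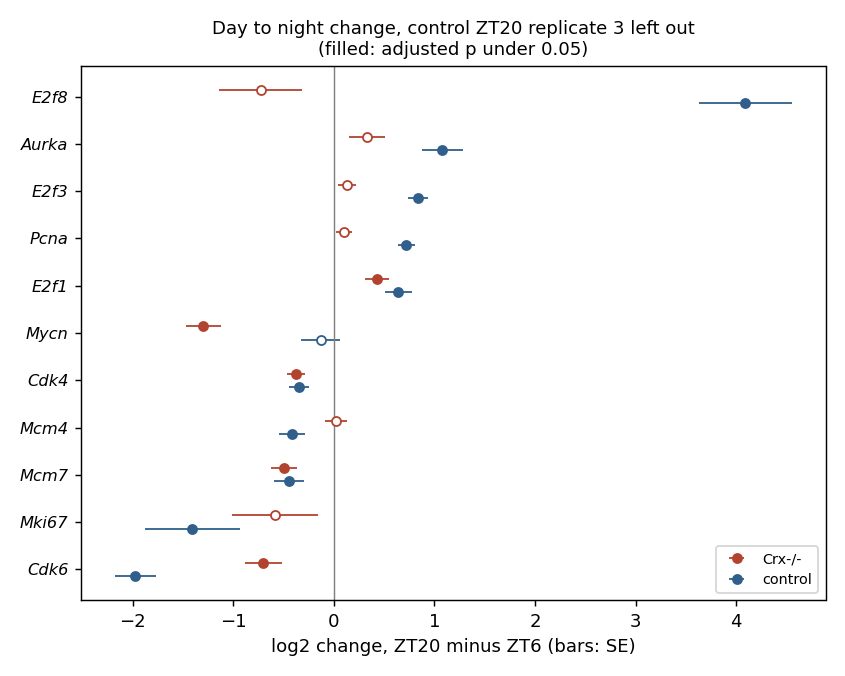
Night minus day change (log2, with standard error) of the cell cycle genes that passed limma's test in either genotype, in the fit without control ZT20 replicate 3; red for Crx-/- and blue for control, filled where the adjusted p was under 0.05. E2f8 rises by 4.09 in control and has -0.73 in Crx-/-, Cdk6 falls further in control, and Cdk4 and Mcm7 have like values in both.

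Other genes of the cell cycle were counted from 5 lists of 127 genes. Of 97 tested, 17 rose and 20 fell in Crx-/- glands over both times with all arrays, where 43.4% of all genes passed (25.3% higher, 18.1% lower). Without control ZT20 replicate 3, 20 rose and 27 fell, where 55.9% of all genes passed (31.2% higher, 24.7% lower). In both fits the share called was below that among all genes. The mitosis and cytokinesis list had 2 higher and 9 lower of 23 tested (41 listed), with a median change of -0.36, against 0.04 for all genes. It had 2 higher and 12 lower without control ZT20 replicate 3, where 24.7% of all genes were lower. Genes were tested only if at or above the array median on at least 3 arrays. A gene that passed this filter through control arrays alone leans to lower in Crx-/-. The part of the filter in this split was not tested. The licensing list had 1 higher and 5 lower of 18, the replication and nucleotide list 5 and 2 of 18, the G1 list 5 and 3 of 20, and the checkpoint list 4 and 1 of 18. These 4 lists had shares called below the 43.4% of all genes. Without control ZT20 replicate 3 the licensing list had 1 higher and 7 lower, the replication and nucleotide list 6 and 2, the G1 list 6 and 4, and the checkpoint list 5 and 2. Their shares were again below the 55.9% of all genes.

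In the mitosis list the largest falls were in Bub1b, the BubR1 kinase of the spindle checkpoint, Ckap2, a microtubule protein, and Prc1, which bundles the midzone of the spindle. Bub1b had 60.3, 48.6 and 36.9 in Crx-/- ZT6 and 273, 286 and 305 in control ZT6, and 47.7, 52.4 and 46.4 in Crx-/- ZT20 and 477, 462 and 41.1 in control ZT20. Apart from control ZT20 replicate 3, the lowest of the night arrays, every control array was above every Crx-/- array. Bub1b fell by 2.28 on the log2 scale (SE 0.48; limma, adjusted p = 0.00304), Ckap2 by 1.77 (SE 0.52; adjusted p = 0.0169) and Prc1 by 1.57 (SE 0.21; adjusted p = 0.000411). Bub1b was below the array median of about 101 on every Crx-/- array and passed the filter on dim signals through control arrays alone. Its adjusted p-values therefore do not stand apart from the filter. Kif22, a chromosome-arm kinesin, Mad2l1, the checkpoint protein Mad2, and Racgap1, a subunit of centralspindlin, chosen after their values were seen, fell by 1.35, 0.82 and 0.67 (adjusted p = 0.00344, 0.00353 and 0.0338). The call of Racgap1 was lost in 9 of the 12 fits with 1 array left out (all except those without Crx-/- ZT6 replicate 2, control ZT6 replicate 1 or control ZT20 replicate 3; adjusted p up to 0.0854), and those of the other 5 held in all 12. The ubiquitin conjugase Ube2c and the checkpoint protein Bub3 rose by 0.42 and 0.21 (limma, adjusted p = 0.0290 and 0.0268), and their calls were lost in 7 (Ube2c) and 5 (Bub3) of the 12 fits. With the signals as deposited the calls of Racgap1, Ube2c and Bub3 were lost (adjusted p = 0.101 to 0.214).

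**Figure D5:**
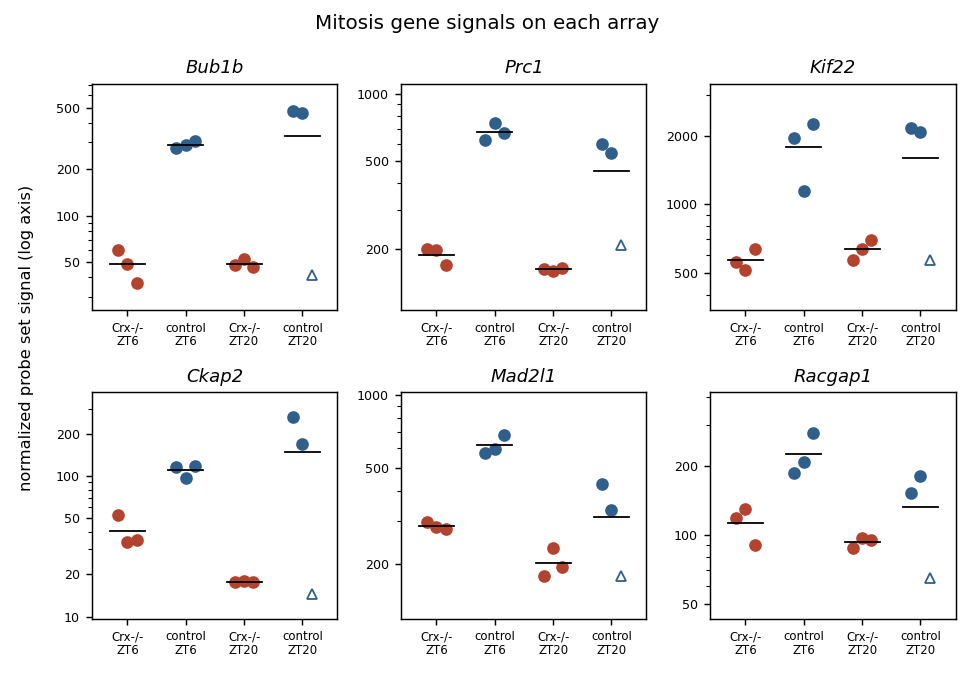
Normalized probe set signal (log axis) of 6 mitosis genes on each array, drawn as in the plot of 12 cell cycle genes: red for Crx-/-, blue for control, an open triangle for the array labelled control ZT20 replicate 3 and a line at the mean of each group's 3 arrays. The triangle lies at or below the Crx-/- ZT20 points for Bub1b, Ckap2, Kif22, Mad2l1 and Racgap1, and just above them for Prc1.

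In the other lists Gmnn, which encodes the licensing inhibitor geminin, fell by 0.65 on the log2 scale (SE 0.10; limma, adjusted p = 0.000719). Its signals were 459, 509 and 395 in Crx-/- ZT6 and 787, 880 and 918 in control ZT6, and 475, 463 and 494 in Crx-/- ZT20 and 655, 724 and 513 in control ZT20, with no overlap at either time. Also in the licensing list, Gins3, a subunit of the GINS complex of the replication fork, and Mcm8, a relative of the Mcm helicase subunits, fell by 0.64 and 0.39 (adjusted p = 0.0227 and 0.0342), and Orc4, a subunit of the origin recognition complex, rose by 0.25 (adjusted p = 0.0151). In the replication list Rpa2, a subunit of the single-strand binding protein, and Lig1, the DNA ligase of the replication fork, fell by 0.56 and 0.39 (adjusted p = 0.00185 and 0.00314), while Prim1, the primase, and the clamp loader subunits Rfc2 and Rfc4 rose by 0.59, 0.49 and 0.33 (adjusted p = 0.00123, 0.00604 and 0.0212).

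Among G1 regulators the ubiquitin ligase subunit Fbxw7, the inhibitor Cdkn2b and the E2F partner Tfdp2 rose by 0.63, 0.59 and 0.39 (limma, adjusted p = 0.00592, 0.00232 and 0.0193), while the inhibitor Cdkn2d, the E2F family member E2f6 and the Myc partner Max fell by 0.53, 0.53 and 0.38 (adjusted p = 0.00509, 0.00321 and 0.00143). In the checkpoint list the phosphatase Cdc25b, the stress gene Gadd45b and Fbxo5, an inhibitor of the anaphase-promoting complex, rose by 0.61, 0.54 and 0.43 (adjusted p = 0.00620, 0.00570 and 0.0249), and the stress gene Gadd45a fell by 0.41 (adjusted p = 0.0317). Over the 12 fits with 1 array left out the calls were lost in 9 fits for Mcm8, 8 for Gadd45a, 5 for Fbxo5, 4 for Gins3 and 2 for Rfc4, and those of the other genes named from these 4 lists held. With the probe set of largest variance Gadd45b had 0.16, Orc4 0.20 and Rfc4 -0.13, none of which passed (limma, adjusted p = 0.314, 0.503 and 0.383), and Tfdp2 had -0.51 and passed as lower (adjusted p = 0.00832). With the signals as deposited the calls of Gmnn, Gins3, Mcm8, Orc4, Rpa2, Lig1, Rfc4, Tfdp2, Cdkn2d, E2f6, Max, Fbxo5 and Gadd45a were lost (adjusted p = 0.0904 to 0.534).

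The authors' deposited table of genes down in Crx-/-, which pools both times and has 512 entries, lists 4 of the 35 genes, with log2 fold changes of -3.6 for Mycn, -1.65 for E2f8, -1.16 for E2f1 and -1.1 for Aurka. In the authors' deposited table the mitosis genes Bub1b (-2.16), Kif22 (-2.02), Ttk (-1.47), Prc1 (-1.31) and Ckap2 (-1.26) stand as well. Their deposited table of genes up in Crx-/-, with 714 entries, lists 0 of the 35. The tables and the tests above were made from the same arrays.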

How the data were processed

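RNA of pineal glands was hybridised to 12 arrays in 4 groups of 3, taken from the deposited titles. Per the labels, 100 ng of RNA was amplified with a Nugen Ovation kit. The authors processed the arrays with GCOS, per the submitters' processing notes, into probe set intensity on a linear scale, not scaled between arrays. The authors' deposited up and down lists give log2 fold changes made with ChipInspector 2.1, per the labels, and their other columns, a score per gene among them, were not used.

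The 45101 deposited intensity values per array were quantile normalized, and log2(signal + 3.4) was taken, 3.4 being the 10th percentile of all deposited signals. Of 45037 probe sets other than controls, those at or above their array's median on at least 3 arrays were kept, and the brightest with a single symbol stood for each of 12379 genes (12368 without control ZT20 replicate 3). Symbols came from the platform annotation, which can be old. The 4 groups were compared by limma 3.58.1 (R 4.3.3; lmFit, then eBayes with a trended prior), two-sided, adjusted by Benjamini-Hochberg over all genes tested; calls have an adjusted p under 0.05. The fit was tested on simulated data. The text names every listed gene, and from each other list up to 3 called genes that rose most and 3 that fell most over both times, with Kif22, Mad2l1 and Racgap1 added after their values were seen. Members and lists were chosen with earlier results of these data known. Alternatives were other scalings, pseudocounts, filters and probe sets, array weights, a replicate block and each array left out. No explanation was tested.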

Additional observations from a re-analysis of the deposited data

Results flagged for a closer look

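Without the array labelled control ZT20 replicate 3, the genotype effect differed between ZT6 and ZT20, by limma's interaction test, for 8 of the cell cycle genes named in the text. It passed for 5 of 30 listed genes tested and for 6 of 97 others, where 6.14% of all genes passed, and 3 of those 6 are named. Among the listed genes the interaction was 1.27 for Cdk6 (adjusted p = 0.0163), -0.62 for Pcna (adjusted p = 0.00721), -0.71 for E2f3 (adjusted p = 0.00961), -4.82 for E2f8 (adjusted p = 0.000939) and -1.16 for Mycn (adjusted p = 0.0218). Among the other cell cycle genes it was 0.71 for the ligase Lig1 (adjusted p = 0.0276), -1.95 for Ckap2 (adjusted p = 0.0151) and -1.18 for the growth arrest gene Gadd45a (adjusted p = 0.00962). A positive value means that the change by genotype was higher at ZT20 than at ZT6. With all 12 arrays limma called none of these 8. E2f8 would not have passed the filter on dim signals without control ZT20 replicates 1 and 2, where it was high.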

How the results depend on the processing

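With the signals as deposited the median change of all genes over both times was 0.17 on the log2 scale, against 0.04, and 75.8% of called genes were higher in Crx-/-, against 58.3%; with the probe set of largest variance the share was 49.7%. Counts of called cell cycle genes are given in the order genotype over both times, at ZT6, at ZT20, time in Crx-/-, time in control and interaction, where the values were 11, 8, 6, 0, 6 and 0. Signals as deposited gave 6 over both times, 3 at ZT6, 1 at ZT20 and 1 for time in control. Calls lost with them were Ccnd1, Cdk1, Cdk2, Cdk6, Cdkn2c and Mcm5 over both times, and Ccnd1, Cdk2, Cdk6, Cdkn1a and Cdkn2c at ZT6. At ZT20 those of Cdkn1a, Aurka, Mcm5, E2f1 and E2f3 were lost, and for time in control those of Mcm2, Mcm4, Mcm7, Pcna and E2f3. The call of E2f8 was gained over both times. Array weights gave 18, 13, 16, 4, 15 and 6. The lowest weight, 0.106, fell to control ZT20 replicate 3 and the highest, 4.90, to control ZT20 replicate 2. This setting is therefore close to leaving out replicate 3. No filter on dim signals gave 1 at ZT20. Leaving out control ZT20 replicate 3 and control ZT6 replicate 3 together, chosen after the data were seen, gave 21, 12 at ZT20, 2 for time in Crx-/- and 4 for the interaction. Leaving out 1 array at a time gave 7 to 17, 5 to 9, 0 to 12, 0 to 5, 2 to 10 and 0 to 5.

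Replicate numbers did not pair the arrays throughout: 5 of 18 same-numbered pairs had a correlation of deviations over 0.1 (-0.273 to 0.211), and 5 of 12 arrays correlated best with their own number. The groups differed in this. Same-numbered pairs between the ZT20 groups had 0.131, 0.137 and 0.186, and those with control ZT6 ran from -0.273 to 0.015. Whether the numbers mark a batch was not tested. With the replicate number as a block the count at ZT20 was 3.

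Of single-gene values over these alternatives 1879 kept direction and side of the threshold, 233 lost the call, 98 gained it and 27 changed sign. Sign changes over both times were small in genes not called: with signals as deposited Ccnd3 had 0.021, Mcm4 0.067, Mcm7 0.050 and Rb1 0.040. With array weights Ccne2 had -0.039, Mcm2 -0.0048 and Birc5 -0.086. Over the fits with 1 array left out Mki67 ran from -0.073 (without control ZT6 replicate 2) to 0.45, Mcm2 from -0.033 (without control ZT20 replicate 3) to 0.10, Mcm4 from -0.092 to 0.016 (without control ZT6 replicate 3), and Birc5 from -0.097 (without control ZT6 replicate 2) to 0.21. Without both arrays Mcm4 had 0.016. With the probe set of largest variance Mcm2 had -0.27, the called Tfdp2 and Rfc4 had -0.51 and -0.13, and Ccne1 at ZT20 had 0.17. E2f1 over time in control had -0.15 with signals as deposited, and ran from -0.16 (without control ZT20 replicate 1) to 0.64 (without replicate 3). The Mycn interaction had -1.02 with array weights and -1.12 without both arrays, and ran from -1.16 (without control ZT20 replicate 3) to 1.21 (without replicate 1). The cause was not tested.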
